A study of Drosophila melanogaster with 2 samples.

Results

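The genes described here encode RNA polymerase II and the general transcription factors that bring it to promoters. They were taken by symbol from the protein-coding gene models of Drosophila melanogaster in dm6 coordinates: the 12 polymerase II subunits Polr2A to Polr2L, Tbp, the Taf genes numbered by subunit, the TfII genes and Trf2. The rule gave 38 genes of 13945, and no measured value entered it. Binding of Asciz, also called CG14962, a zinc finger transcription factor, was profiled at these genes by chromatin immunoprecipitation and sequencing (ChIP-seq) with an antibody against GFP. The chromatin came from whole embryos of both sexes, 0 to 24 h of age, of a transgenic line with stable expression of Asciz carrying GFP at its C terminus. Both libraries, biological replicates 1 and 3, belong to 1 group made from separate biosamples, and there was no second condition. The labels name neither the promoter of the transgene nor a separate cell type, and the values are peak lists, so the label of whole embryo could not be checked against marker genes.

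Transcription by RNA polymerase II starts when TFIID, made of the TATA-binding protein Tbp and its associated factors (the Taf proteins), settles on the core promoter. TFIIA steadies that complex, TFIIB joins it to the polymerase, TFIIF arrives with the polymerase, and TFIIE brings in TFIIH, the helicase and kinase that opens the DNA. TFIIS acts later, on polymerases that have stalled during elongation. Trf2 is a relative of Tbp that serves promoters without a TATA box. Most of these proteins are used in cells of every kind, while Taf12L, also called rye, is a testis form of Taf12. A peak between genes that start close together on opposite strands cannot be given to either of them.

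Genes count as bound here where the reproducible list, the 5085 peaks that the authors kept by irreproducible discovery rate, has a summit within 500 bp of one of their transcription start sites (TSSs). Of the 38 genes, 8 were bound (21.1%, 95% Wilson interval over genes 11.1 to 36.3), against 13.7% of all protein-coding genes, a share inside that interval. The bound genes were Polr2B, Polr2F and Polr2J of the polymerase, Taf2 of TFIID, TfIIA-L and TfIIA-S, TfIIB and TfIIEbeta. From the strongest regions of replicate 1 alone the count was 5 (13.2%, against 12.8% of all protein-coding genes). From those of replicate 3 it was 9 (23.7%, against 15.2%). In height all 8 lay below the upper quartile of bound protein-coding genes, and TfIIEbeta lay below the lower quartile too. Their signal, the authors' own value for each peak, had a median of 197.6 (159.8 to 400.3), against a median of 238.8 (quartiles 169.3 and 417.1) for all 1916 bound protein-coding genes and 26348 at ctp, the highest peak of the list. The list ended at a signal of 126.7, so the lowest bound member, TfIIEbeta at 159.8, was inside it with a margin, and the highest region at an unbound member, 102.9 at Polr2H in the pooled list, was outside. Each of the 8 genes had 1 reproducible peak, 424 bp wide, the same width as the pooled regions at unbound members.

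The bound sites are shown from 50 bp before to 50 bp after each summit, read from the release 6 assembly (dm6) on the strand of the gene, 5′ to 3′. They let the very different base content of these summits be seen. Capitals mark TATAAA and AATATTTA in either orientation, the searched words that were found in these windows. In Taf2 AATATTTA overlaps a TATAAA on the opposite strand. In Polr2J TATAAA overlaps another TATAAA on the opposite strand. The windows are ordered by signal, from Polr2B to TfIIEbeta.
Polr2B, chr3R:14125643-14125743, plus strand: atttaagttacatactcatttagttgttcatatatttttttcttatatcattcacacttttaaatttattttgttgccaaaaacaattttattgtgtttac
Taf2, chr3L:9888970-9889070, minus strand: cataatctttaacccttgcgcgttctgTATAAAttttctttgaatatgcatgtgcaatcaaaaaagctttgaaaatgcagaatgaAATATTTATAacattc
Polr2F, chr3R:5371668-5371768, plus strand: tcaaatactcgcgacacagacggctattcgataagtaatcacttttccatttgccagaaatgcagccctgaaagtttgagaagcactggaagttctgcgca
TfIIA-L, chr3R:27253198-27253298, plus strand: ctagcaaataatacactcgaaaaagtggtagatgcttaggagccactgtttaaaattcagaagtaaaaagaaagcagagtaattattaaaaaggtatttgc
Polr2J, chr2L:17410401-17410501, minus strand: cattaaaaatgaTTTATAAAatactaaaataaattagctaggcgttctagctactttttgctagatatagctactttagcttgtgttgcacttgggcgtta
TfIIA-S, chr3R:23891056-23891156, minus strand: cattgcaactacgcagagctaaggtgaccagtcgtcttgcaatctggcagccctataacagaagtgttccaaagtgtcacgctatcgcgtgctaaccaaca
TfIIB, chr2L:10431017-10431117, plus strand: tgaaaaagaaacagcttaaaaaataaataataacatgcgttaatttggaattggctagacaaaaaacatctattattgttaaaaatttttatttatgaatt
TfIIEbeta, chr3L:4286912-4287012, plus strand: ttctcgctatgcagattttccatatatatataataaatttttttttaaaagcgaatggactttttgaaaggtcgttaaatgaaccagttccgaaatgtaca

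The highest pooled signal among these peaks was at a polymerase gene, with Taf2 of TFIID second. Polr2B (FBgn0262955), the second-largest subunit, which forms the catalytic centre together with Polr2A, had its peak at chr3R:14125481-14125904 with a signal of 400.3, rank 843 of 5085. Among bound protein-coding genes 73.4% had a lower signal. The strongest region overlapping that peak had a signal of 182.6 in replicate 1 and 214.5 in replicate 3. Because the scales of the lists differ, each was expressed relative to the library's median at reproducible peaks, 91.7 and 123.6. This relative signal came to 1.99 at Polr2B in replicate 1, and to 1.74 in replicate 3 (mean 1.86 ± 0.181, SD, n = 2). Both libraries thus placed Polr2B well above their median peak, and their summits lay 0 and 7 bp from the pooled one. The summit was between genes, 98 bp upstream of the TSS of Polr2B and 145 bp upstream of that of 140up, which runs the other way from a TSS 243 bp off.

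Polr2F and Polr2J lay near the median of the list. Polr2F (FBgn0003275), a subunit that polymerases I and III also contain, had a signal of 212.0 (rank 2410) at chr3R:5371506-5371929, 77 bp upstream of its TSS. No other TSS lay within 500 bp, and the summit fell in introns of CG31542 and CG34277, whose spans cover this gene's promoter. Replicate 1 gave a relative signal of 0.62, and replicate 3 one of 1.18 (mean 0.90 ± 0.396, SD, n = 2). Polr2J (FBgn0032634), a subunit that pairs with Polr2C in the assembly of the enzyme, had a signal of 190.2 (rank 2851) at chr2L:17410239-17410662, 45 bp upstream of its TSS and 190 bp upstream of that of CG15141 on the other strand. The 2 libraries were closest to each other here, at 0.951 and 0.943 (mean 0.947 ± 0.0057, SD, n = 2), although the replicate 1 summit lay 103 bp from the pooled one.

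The polymerase thus had 3 of 12 genes bound, against 13.7% of all protein-coding genes. The other 9 were unbound, Polr2A among them, the largest subunit with the repeated C-terminal tail. Its nearest reproducible summit was 9816 bp away. Polr2H and Polr2E, both shared with polymerases I and III, had weaker regions in each relaxed list, the authors' longer lists of peaks and background (30000 regions each). At Polr2H the pooled signal was 102.9 (rank 6890), with relative signals of 0.424 in replicate 1 and 0.561 in replicate 3. At Polr2E it was 76.9 (rank 10427), with 0.343 and 0.392. Polr2G, part of the stalk of the enzyme, had a region in replicate 3 alone (relative signal 0.46). Polr2C, Polr2D, Polr2I, Polr2K and Polr2L had none in any list. Polr2D starts at the same base as Ada2a, and reads at that start cannot be given to either gene.

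Among the 16 genes of TFIID, 1 was bound, against 13.7% of all protein-coding genes. At that member the summit was nearer to another gene. Taf2 (FBgn0011836), which contacts core promoter DNA, had a signal of 309.0 (rank 1312) at chr3L:9888808-9889231. The summit lay 337 bp upstream of its TSS, the farthest among the bound genes, and 84 bp upstream of a TSS of CalpB, a calpain protease gene on the other strand, inside an annotated 5′ untranslated stretch of CalpB. Replicate 1 reached a relative signal of 2.01, and replicate 3 one of 1.29 (mean 1.65 ± 0.507, SD, n = 2). Replicate 1 listed 2 regions at this peak, the stronger with its summit 217 bp from the pooled summit and 120 bp upstream of Taf2, the weaker (1.61) 319 bp upstream. Replicate 3 listed 1, with its summit 348 bp upstream of Taf2. All of these summits lay inside CalpB, past its outer TSS, which is 79 bp from that of Taf2 and 258 bp from the pooled summit. The region that covers the pooled summit was also taken in place of the strongest one, with library medians from that choice. The relative signals were then 1.63 in replicate 1 and 1.32 in replicate 3, a smaller gap in the same direction.

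Of the 15 unbound TFIID genes, Taf10 and Taf10b stand 45 bp apart, head to head, and share a weak region. Its pooled signal was 72.1 (rank 11452), and the relative signals were 0.424 in replicate 1 and 0.371 in replicate 3. The summits lay between the TSSs in all 3 lists, 8 bp upstream of Taf10b and 37 bp upstream of Taf10 in the pooled one. The stretch is shown because the same weak region lies at both TSSs. It runs from 50 bp inside Taf10b to 50 bp inside Taf10 on the plus strand, with TATAAA and CAGCTG in capitals.
Taf10b to Taf10, chr2L:2767795-2767940: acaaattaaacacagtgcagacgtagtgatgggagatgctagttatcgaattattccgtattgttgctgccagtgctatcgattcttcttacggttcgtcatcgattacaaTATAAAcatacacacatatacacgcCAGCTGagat
Taf3, on chromosome 4, had a region in the pooled list (64.4, rank 13504) and in replicate 3 (0.428). Taf11 (0.441), Tbp (0.306), Taf12 (0.237) and Taf9 (0.225) had regions in replicate 3 only, the last 2 near the lowest relative signal which that list holds, 0.18. Taf1, the largest TFIID subunit, and Taf4, Taf5, Taf6, Taf7, Taf8, Taf12L and Taf13 had none. Trf2, the relative of Tbp, was unbound too, yet it had the strongest replicate 3 region of the unbound genes. Its pooled signal was 87.5 (rank 8669), 71 bp upstream of the inner of its 2 TSSs. In replicate 3 that site reached 0.733 (rank 4119), and in replicate 1 the strongest region, 0.567, lay at the outer TSS, 12093 bp away. Each list had a region at both TSSs. At the other TSS the strongest was 84.3 in the pooled list (outer), 0.477 in replicate 3 (outer) and 0.414 in replicate 1 (inner).

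The remaining general factors were bound at 4 of 9 genes, against 13.7% of all protein-coding genes. With groups this small, the counts by complex are a description, and differences between complexes were not tested. In TFIIA, TfIIA-S (FBgn0013347), the small subunit, had a signal of 186.4 (rank 2960) at chr3R:23890894-23891317, 46 bp upstream of its TSS, with no other TSS within 500 bp. The libraries were close, with relative signals of 0.844 (replicate 1) and 0.798 (replicate 3), a mean of 0.821 ± 0.0321 (SD, n = 2). TfIIA-L (FBgn0011289), the precursor of the large subunits, had a signal of 205.0 (rank 2550) at chr3R:27253036-27253459. That summit lay in an intron of TfIIA-L, 182 bp upstream of an inner TSS used by TfIIA-L-RA and TfIIA-L-RB, 2318 bp inside the gene, and 66 bp upstream of the TSS of pll, the Toll pathway kinase gene, on the other strand. Its relative signal in replicate 3 was 1.14, and replicate 1 listed no region there. Replicate 3 also listed a weaker region (0.440) with its summit 22 bp downstream of the inner TSS of TfIIA-L. The third gene, TfIIA-S-2, was unbound and had no region in any list.

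TfIIB and TfIIEbeta rested on replicate 3 in the same way. TfIIB (FBgn0004915), the bridge between Tbp and the polymerase, had a signal of 177.1 (rank 3204) at chr2L:10430855-10431278. The summit was 271 bp upstream of TfIIB and 149 bp upstream of Bug22, a gene for a cilium protein on the other strand, with a relative signal of 0.699 in replicate 3. A weaker region lay nearer to TfIIB, 70 bp upstream in the pooled list (signal 39.6) and 99 bp upstream in replicate 3 (relative signal 0.373). TfIIEbeta (FBgn0015829), a subunit of TFIIE, had a signal of 159.8 (rank 3700) at chr3L:4286750-4287173, 76 bp upstream of its TSS and with no other TSS in reach. Its relative signal was 0.698 in replicate 3. The partner gene TfIIEalpha and both TFIIF genes, TfIIFalpha and TfIIFbeta, were unbound and had no region in any list, and TfIIS had a weak region in replicate 1 alone (0.23).

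**Figure D1:**
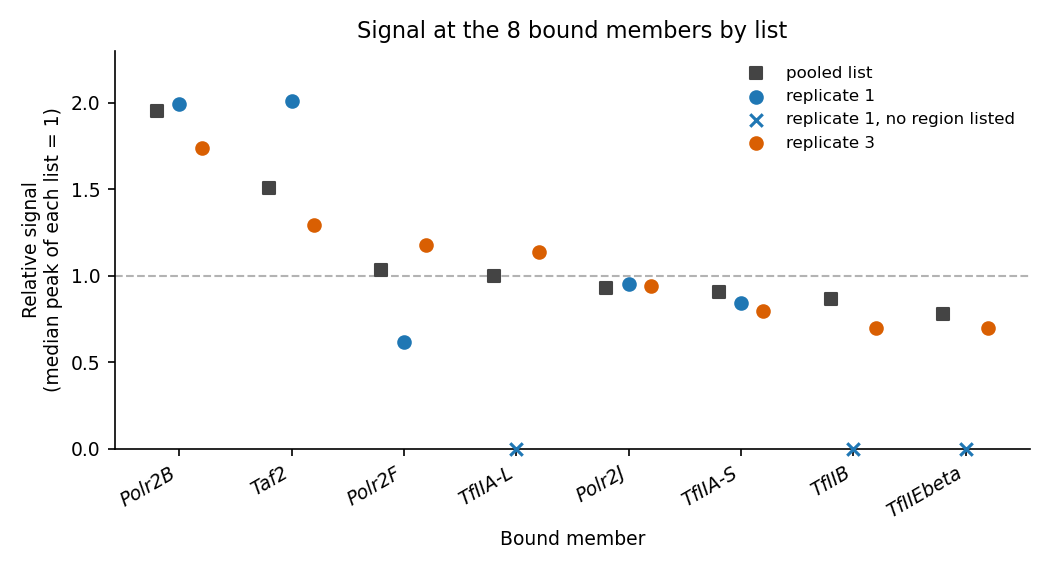
Relative signal (vertical axis, no unit, 1 being the median reproducible peak of a list) at the 8 bound genes, ordered by pooled signal, with squares for the pooled list, blue for replicate 1 and orange for replicate 3. Crosses at 0 mark genes with no region listed in replicate 1 (TfIIA-L, TfIIB and TfIIEbeta) and are not measured values; Polr2B is high in every list.

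Support from the single libraries was uneven. Replicate 1 listed no region overlapping 3 of the 8 bound peaks (37.5%), against 178 of 1916 bound protein-coding genes (9.29%) and 3.44% of all reproducible peaks. Replicate 3 listed a region at all 8. The replicate 1 list ends at a relative signal of 0.214, and a peak below that would not be in it. Where both libraries had a region, the log2 ratio of replicate 3 to replicate 1 was 0.93 at Polr2F, -0.01 at Polr2J, -0.08 at TfIIA-S, -0.20 at Polr2B and -0.64 at Taf2. Over the 1733 bound protein-coding genes with both, the median was 0.04 (quartiles -0.22 and 0.32), so that Polr2F and Taf2 lay outside the quartiles, in opposite directions. With 2 libraries no test of these differences can be made.

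**Figure D2:**
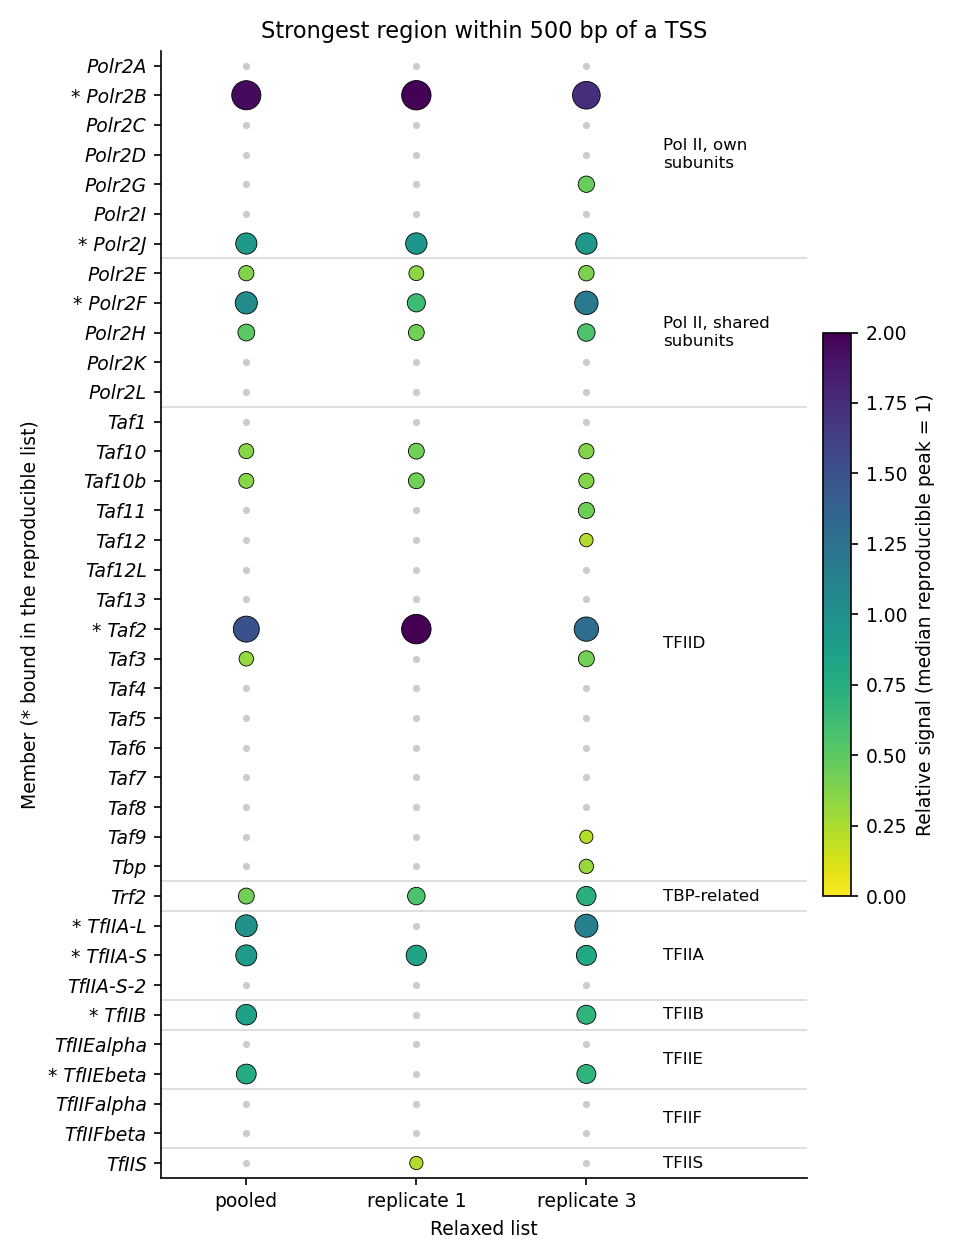
Strongest region within 500 bp of a TSS for each of the 38 genes (rows, grouped by complex, an asterisk marking bound genes) in the pooled, replicate 1 and replicate 3 relaxed lists (columns). Dot size and colour give the relative signal, the pooled signal being divided by the median reproducible peak, and small grey dots mark no region; 18 unbound genes have none in any column.

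The share of members differed between the lists, but in each of them the Wilson interval over genes held the share of all protein-coding genes. In the pooled relaxed list 14 of 38 had a summit within 500 bp (36.8%), against 35.2% of protein-coding genes. In replicate 1 there were 11 (28.9%), against 32.7%, and in replicate 3 there were 19 (50%), against 41.4%. Of the 30 unbound genes, 18 had no region in any of these lists (60%, against 59.4% of unbound protein-coding genes) and 5 had one in all of them (16.7%, against 14.9%). When as many regions as the reproducible list holds, the 5085 strongest, were taken from a single library, 5 of the genes were bound in replicate 1 (13.2%, against 12.8%) and 9 in replicate 3 (23.7%, against 15.2%). The 5 were Polr2B, Polr2F, Polr2J, Taf2 and TfIIA-S, and the 9 were the 8 bound genes and Trf2. In the strongest regions of replicate 1 the share was near the background, and in those of replicate 3 it was higher, with a Wilson interval over genes, 12.99 to 39.21, that holds the background.

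**Figure D3:**
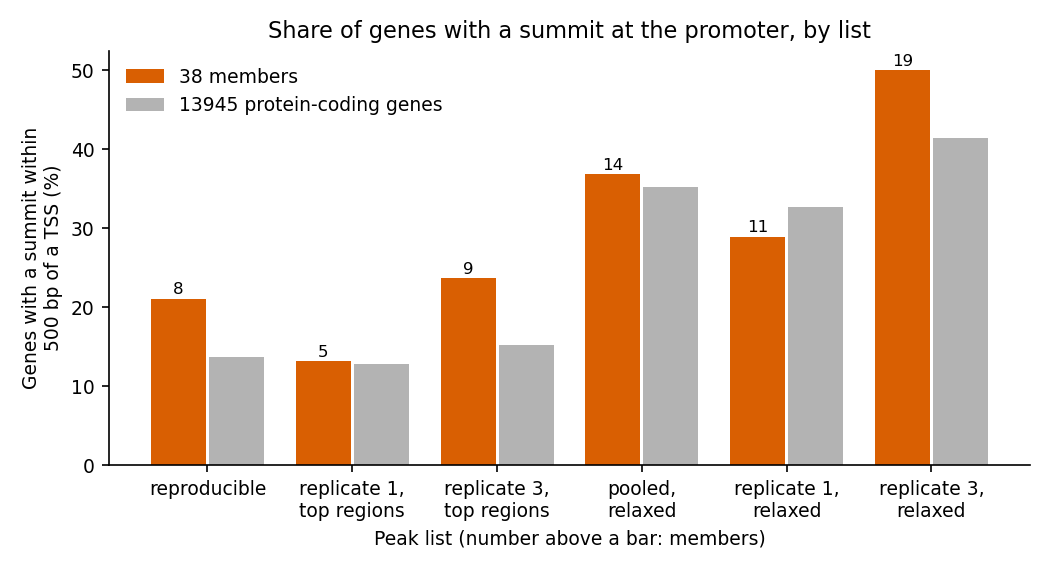
Share of the 38 genes (orange, with their number above the bar) and of all 13945 protein-coding genes (grey) with a summit within 500 bp of a TSS, in percent, for the reproducible list, the 5085 strongest regions of each library and the 3 relaxed lists. The bars are nearly level for the top regions of replicate 1 (13.2% and 12.8%) and differ for those of replicate 3 (23.7% and 15.2%). There, too, the background lies inside the members' Wilson interval over genes, 12.99 to 39.21.

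Neighbouring promoters were common among these genes. A TSS of another gene on the opposite strand lay within 500 bp at 20 of the 38 (52.6%), against 30.8% of protein-coding genes. Of those 20, 5 were bound (25%, against 20.7% of all protein-coding genes with such a neighbour), namely Polr2B with 140up, Polr2J with CG15141, Taf2 with CalpB, TfIIA-L with pll and TfIIB with Bug22. Of the other 18, 3 were bound (16.7%, against 10.6%), namely Polr2F, TfIIA-S and TfIIEbeta. The member's own TSS was the nearest to the summit at 5 of the 8, and at Taf2, TfIIA-L and TfIIB the neighbour's was nearer. Among all bound protein-coding genes the own TSS was nearest at 78.1%. Unbound genes with a neighbour included Polr2A, 295 bp from CG11699, Taf12, 53 bp from Ho, and Taf7, 30 bp from EMC1.

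All 8 summits lay upstream of the TSS, from 45 bp at Polr2J to 337 bp at Taf2, with a median position of -87.5 bp. Over all bound protein-coding genes 82.1% of summits were upstream, with a median of -151 bp (quartiles -257 and -52). The genes whose own TSS was nearest had summits 45 to 98 bp upstream, and the others 182 to 337 bp upstream, a split that the distances themselves bring about in part.

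**Figure D4:**
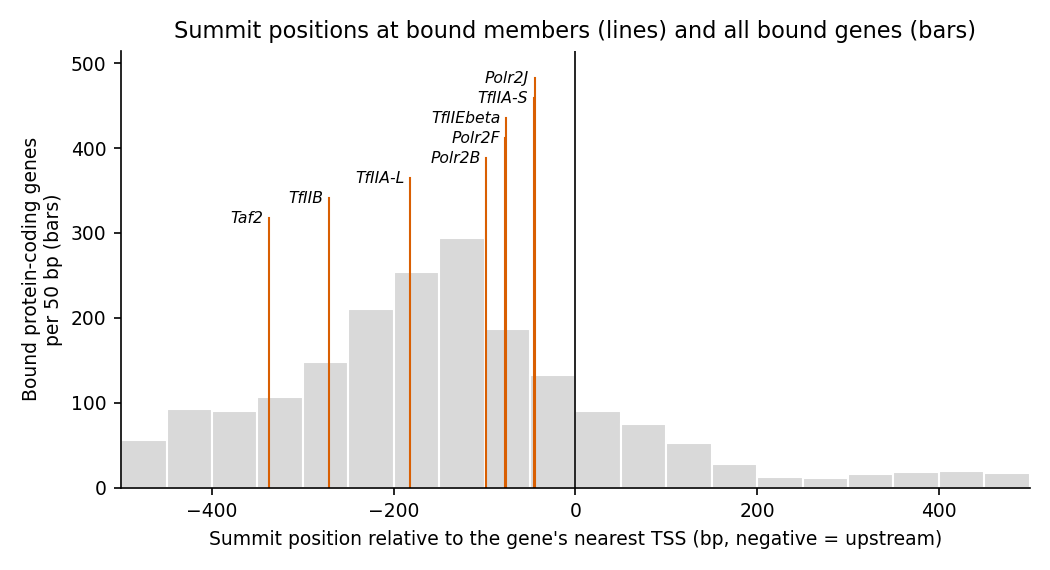
Position of the summit relative to the nearest TSS of the gene (horizontal axis, bp, negative upstream) at the 8 bound genes (orange lines, whose heights carry no value) and at all 1916 bound protein-coding genes (grey bars, genes per 50 bp). Every line lies left of 0, and those of Polr2B, Polr2F, TfIIEbeta, TfIIA-S and Polr2J lie within 100 bp of the TSS.

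Unbound genes could still have reproducible peaks in the neighbourhood. None lay just outside the limit: the nearest was 1443 bp from Taf12 (signal 516.3, 131 bp from the TSS of CG18476), followed by 1970 bp from Taf10b, 2015 bp from Taf10 (406.5, near Snx21), 2071 bp from TfIIEalpha (181.1, near Sugb), 2138 bp from Polr2C (1567, near CenG1A) and 2440 bp from Taf13 (569.5, near Pyroxd1). Each of these summits was nearer to the TSS of the gene named beside it than to the member. The median distance over the 30 unbound genes was 8970 bp, against 11978 bp over the 12029 unbound protein-coding genes. The bound genes farthest from their summits were Taf2 at 337 bp and TfIIB at 271 bp, so no member lay close to the limit on either side.

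The summit windows printed above varied from 50.5% A+T at TfIIA-S and 55.4% at Polr2F to 80.2% at both Polr2B and TfIIB. Over the 1902 reproducible summits in promoters the median was 67.3% (quartiles 59.4 and 73.3). The windows of TfIIA-S and Polr2F were thus below the lower quartile and those of Polr2B and TfIIB above the upper one, while the signals at TfIIA-S and TfIIB, 186.4 and 177.1, were close. An unbroken run of 29 A or T bases stood in the window of TfIIEbeta, the lowest peak, against 15 in that of Polr2B, the highest.

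Among 7 words searched on both strands, AATATTTA, included because it led an earlier search of the summits of these data, was in the window of Taf2 alone, against 5.36% of promoter summits. TATAAA, the core of the TATA box, was in those of Taf2 and Polr2J, against 22.9%. The DNA replication-related element (DRE) TATCGATA, the motif 1 core GTGTGACC, the core promoter word GGTATTTT, the E-box CAGCTG and GAGAG were in none of the 8. In the 301 bp from 250 bp before to 50 bp after the 5′ end of each gene, GTGTGACC stood at 7 of the 30 unbound genes (Polr2D, Polr2G, Polr2I, Polr2L, Taf1, Taf4 and Taf5) and at none of the 8 bound, against 7.71% of protein-coding genes and 9.50% of the bound ones. TATCGATA stood at 4 unbound genes (Polr2D, Polr2L, Taf3 and Tbp) and none bound, against 9.37% and 11.1%, so over all genes both words were somewhat more frequent at bound genes. TATAAA was at 3 bound and 17 unbound genes, against 45.9%, GAGAG at 2 and 6, against 29.8%, CAGCTG at 1 and 3, against 17.7%, GGTATTTT at 1 and 2, against 5.29%, and AATATTTA at 1 and 6, against 10.0%. For TfIIA-L this stretch is at the outer TSS and not at the bound one. The stretches of Taf10 and Taf10b overlap, so the TATAAA and CAGCTG printed between them count at both genes. With 8 bound genes these counts are a description and no test was made.

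Other genes of transcription, in lists of known subunits that include those of polymerases I and III, were bound at 20 of 95 (21.1%). The share of all protein-coding genes was 13.7%. Mediator, the bridge between activators and the polymerase, had 8 of 29, led by MED30 (signal 412.9), MED17 (342.3) and MED27 (268.8), with MED4, skd, MED7, MED25 and MED31 below. SAGA, a coactivator that shares several Taf proteins with TFIID, had 5 of 15, with Ada2b (547.8) and its acetyltransferase Gcn5 (463.9) highest and Sgf29, wda and Ada3 lower. Elongation factors had 5 of 19, Nelf-E (667.5), a pausing factor, Cdk12 (282.2), dre4 (244.8), CycT (141.7) and atms (132.4). TFIIH had 1 of 10, Ssl1 (1541), whose summit was nearer to Chro, a gene for a chromatin protein. The own subunits of polymerases I and III had 1 of 17, Polr3E (523.3), and the testis-specific Taf genes (4 besides Taf12L) and Trf had none. The gene's own TSS was the nearest to the summit at 7 of the 20, against 78.1% of bound protein-coding genes. At the other 13 that of another gene was nearer, as RpL14 for Nelf-E and Rev1 for MED30. Replicate 1 listed no region at 4 of the 20 (MED27, MED4, MED31 and CycT).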

How the data were processed

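ChIP-seq of GFP-tagged Asciz was available as peak lists from 2 libraries, biological replicates 1 and 3, with a separate biosample each. Per the deposited file listings, relaxed lists of 30000 regions were made by the authors for each library and for both together, and the optimal list was derived from them by IDR, all in dm6. Signal (the peak list's signal column) is the authors' own value, as deposited. Its scale is not shared between lists, so it was used to order and describe regions inside each one. Depth is unknown, since the lists hold no counts, and neither aligner nor peak caller is named: not given in the sources used here. All 5085 optimal peaks are the strongest pooled regions, which favours overlap with the libraries by construction. Lists in dm3 were not used.

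Gene models were Ensembl release 115 without transposable elements, and sequence was the release 6 assembly, whose chromosome lengths contain every peak and gene. Only the arms of chromosomes 2 and 3, chromosome 4 and X entered, which left 1 region out of each relaxed list. Regions were matched to peaks by at least 1 bp. The members and lists were chosen with earlier results of these data known, so shares are set beside all protein-coding genes without a test. Every member is named, with values for those that have a region, and of the other lists the bound genes. Nelf-B was not matched, and rye is the member Taf12L. Wilson intervals cover the spread over genes only. The assignment of summits was tested on simulated data. Alternatives were the window, nearest TSSs, 5′ ends, a stricter signal, interval overlap and each library alone. Scripts ran in Python 3.11.15 with scipy 1.17.1, pandas 2.3.3, matplotlib 3.10.9 and numpy 2.4.6.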

Additional observations from a re-analysis of the deposited data

How the results depend on the processing

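The count of 8 bound genes stayed within 1.5 times under a window of 200 bp (6), one of 1000 bp (8), 5′ ends only (7), interval overlap (8) and without replicate 1 (9). It was 5 when each summit was given to its nearest TSS, which left out Taf2, TfIIA-L and TfIIB, and 3 (Polr2B, Taf2 and Polr2F) with signals at or above the list's median. Without replicate 3 it was 5 (TfIIA-L, TfIIB and TfIIEbeta left out), and without replicate 1 Trf2 was added, so the alternatives that leave out a library gave 5 to 9. The background of 13.7% became 8.52% with 200 bp, where 15.8% of the members were bound, and 8.15% with the stricter signal, where 7.89% were. Otherwise it stayed between 10.9% and 17.0%. Member shares there were 13.2% against 10.9% (nearest TSS), 18.4% against 11.5% (5′ ends) and 21.1% against 17.0% (1000 bp). With interval overlap they were 21.1% against 15.3%. Without replicate 1 they were 23.7% against 15.2%, and without replicate 3, 13.2% against 12.8%. The median relative signal of 0.963 became 1.51 with the stricter signal, by that choice's own construction, and lay between 0.928 and 0.963 otherwise. Counts in the relaxed lists ranged from 13 to 17 (pooled), 11 to 11 (replicate 1) and 17 to 22 (replicate 3). Taking the region that covers the summit replaced the stronger replicate 1 region at Taf2 (2.01) with the weaker one. Its relative signal was 1.63 with the library median taken in the same way. Depth is unknown, so a region missing from a list does not show that a site is unbound.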
